A study of Mus musculus with 15 samples.

Results

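Gas5 is a noncoding gene whose RNA is spliced and whose introns carry small nucleolar RNAs (snoRNAs). It was followed here through RNA fragments, called tags, that an antibody against Mbnl3 brought down after crosslinking. Tags were taken with their midpoint on the plus strand of chr1:162964400-162968700 (mm9), each position, strand and barcode once. The 6 forelimb libraries held 415 such tags out of 400770, and a combined set of C2C12 cells held 65 of 550124. The gene was chosen for its 71-nt cluster at chr1:162965530-162965600, selected on the tag counts of ΔE2 against WT forelimb, so that contrast is given for this cluster as a description with no test. The name Gas5 came with the interval, and no mm9 annotation was used here, so exons, introns and single snoRNA genes are not assigned to positions.

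Gas5 is a textbook snoRNA host: its box C/D snoRNAs are cut out of the spliced introns, trimmed from both ends and bound by fibrillarin (Fbl), Nop56, Nop58 and Snu13, and they guide ribose methylation of ribosomal RNA. The spliced host RNA has no long reading frame, is short-lived through translation-linked nonsense-mediated decay, and accumulates when growth stops. A box C/D snoRNA is named for its box C near the 5′ end and its box D near the 3′ end. Muscleblind proteins such as Mbnl3 bind RNA at short motifs of the form pyrimidine, G, C, pyrimidine and are best known as regulators of splicing.

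The series used HITS-CLIP, in which ultraviolet light fixes protein to RNA, the RNA is cut by RNase A (which cuts after pyrimidines), and what stays with the protein is sequenced. The labels list the same high and the same low RNase concentration for every CLIP sample, forelimb and C2C12 alike. ΔE2 forelimbs (3 libraries) were homozygous for the Mbnl3 ΔE2 allele, which the title of the series describes as an isoform knockout. WT forelimbs (3 libraries) carried wild-type Mbnl3. Both came from BL6 embryos at day 15 and each replicate pooled 4 forelimbs of 2 embryos, so that a library is a mixture of all limb tissues and of 2 animals. C2C12 is a mouse myoblast line with wild-type Mbnl3, grown in 20% serum, with 5 plates a replicate and 1 combined file for the 3 replicates. All lysates were precipitated with the Mb3/7 antibody against Mbnl3. The ΔE2 CLIP samples are titled Mbnl3 KO, and which protein their tags were crosslinked to was not tested. The 6 RNA-seq samples, 3 ΔE2/ΔE2 and 3 WT forelimbs of day 15, enter only as a deposited table of cassette exons. The level of the targeted gene itself was not analysed here.

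Forelimb libraries held 35413 to 124309 tags. ΔE2 replicates 2 and 3 shared 57 molecules (position and barcode) at the 71-nt cluster, which is 95% of those of replicate 2 and 72.2% of those of replicate 3, and they are counted as 1 library of 65730 tags throughout. Sharing crossed the genotypes too: ΔE2 replicate 1 and WT replicate 3 had 17 molecules of the cluster in common, 23.9% and 21% of their tags there, and 20258 in all. WT replicates 2 and 3 shared 20 at the cluster. WT replicate 1 shared 11 with WT replicate 3 and 7 with WT replicate 2, which is 44% and 28% of its tags there. For ΔE2 against WT, the tag levels, the narrow-cluster share and the shares of starts and lengths are therefore also given without the molecules found in more than 1 library. The labels call the replicates biological, and with 2 libraries against 3 the exact permutation test over the 10 splits cannot go below p = 0.1.

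The sequence under the 71-nt cluster is shown because most of what follows turns on it, and with it the second place of the gene where C2C12 tags gathered. No mm9 genome was used. Both stretches were read from the C2C12 set itself, whose tag names carry 5 letters that turned out to be the genomic bases just before each tag. At 122705 C2C12 positions with more than 1 line, the letters were the same on every line in 90.0%, against 0.0% of 9525 repeated positions in the forelimb libraries, where the letters are a barcode. C2C12 5′ ends lay 6 nt downstream of forelimb 5′ ends more often than at any other offset compared on the plus strand, and 5 nt on the minus strand. Bases read from both strands were the same at 65.9% of 320 positions, against at most 37.2% at 40 other shifts, so single letters below carry error. Capitals mark a box C motif, n marks a base with no letter or with conflicting letters, and both stretches are given 5′ to 3′ on the plus strand of mm9.

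71-nt cluster, chr1:162965530-162965577: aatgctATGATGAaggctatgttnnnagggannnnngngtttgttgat
second C2C12 cluster, chr1:162965981-162966006: agcccatgatggtatgagagtagtgg

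Of the 48 bases of the first stretch, 39 were read, 23 of them more than once, 8 had no letter and 1 had conflicting letters. The box C motif searched for was ATGATGA, or the same with G as its first letter, and it stood at bases 7 to 13 counted from the 5′ edge of the cluster. For comparison, the first 23 bases were searched in each of 313 C2C12 stretches with at least 23 bases read in a row. Both Gas5 stretches are among these 313, and the length of 23 bases was set by the first one. In these windows 3 (0.959%) held either form, the first Gas5 stretch among them, and 0.0% held it on the other strand. The first stretch also held TGCT at bases 3 to 6, a match to the muscleblind motif (TGCT, or the same with C in place of either T). Of the 313 windows of 23 bases, 29.4% held this motif, and 24.6% held it on the other strand. Both matches of the first stretch lie within its own first 23 bases. Neither motif was found on the other strand of the first stretch, and neither was found in the second stretch on the plus strand. The second stretch covers only the 5′ part of its cluster, and the rest of that cluster was not read. A match is a description of letters and not a measured binding site.

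Gas5 tags lay almost wholly in the 71-nt cluster in forelimb. It held 71 of 81 Gas5 tags in ΔE2 replicate 1 and 82 of 90 in ΔE2 replicates 2 and 3, against 25 of 27, 56 of 66 and 81 of 90 in WT replicates 1, 2 and 3. As a share that is 87.7% and 91.1% in ΔE2 forelimb, against 92.6%, 84.8% and 90.0% in WT forelimb. The groups overlapped, with means 0.24 percentage points apart. These shares are almost wholly made of the counts the cluster was chosen by, and they are given as a description. An exact permutation p computed for them is used only in the Benjamini-Hochberg adjustment below. Per nucleotide, tags were 423 and 611 times as dense in the cluster as over the remaining 4230 nt in ΔE2 replicate 1 and in replicates 2 and 3, against 745, 334 and 536 times in WT replicates 1, 2 and 3, and these ranges overlapped too. All tags of the interval were on the plus strand, and the minus strand held 0 in forelimb and 0 in C2C12.

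**Figure D1:**
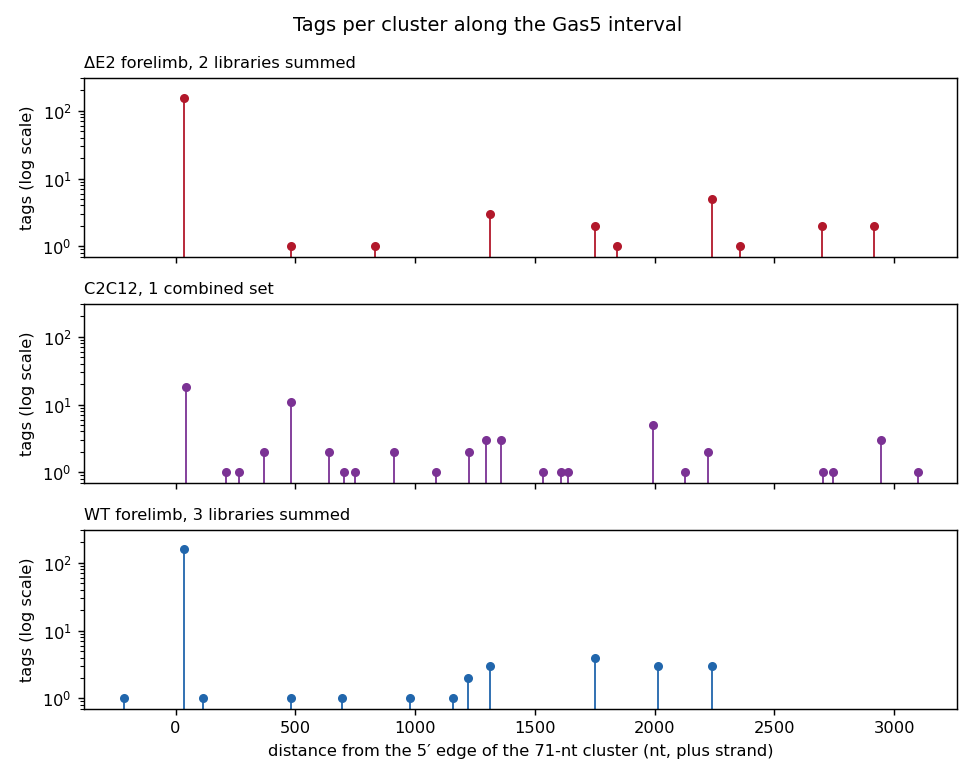
Tags per cluster (log scale) by distance in nt of the cluster's middle from the 5′ edge of the 71-nt cluster, for ΔE2 forelimb (2 libraries summed), C2C12 (1 combined set) and WT forelimb (3 libraries summed); each line with a point is 1 cluster. The 71-nt cluster held 153 tags in ΔE2, 18 in C2C12 and 162 in WT, and no other cluster of the gene held more than 8 tags over the 5 forelimb libraries.

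Merged by overlap of at least 1 nt, the forelimb tags of the gene formed 17 clusters, of which 4 met the size set for snoRNA-like clusters (at most 150 nt wide with at least 5 tags over the 5 libraries). Beside the 71-nt cluster with 315 tags, these were chr1:162966798-162966884 (87 nt, 6 tags), chr1:162967247-162967311 (65 nt, 6 tags) and chr1:162967736-162967806 (71 nt, 8 tags). The first of these 3 had 3 tags in ΔE2 replicate 1 and 0 in ΔE2 replicates 2 and 3, against 0, 2 and 1 in WT replicates 1, 2 and 3. The next had 0 and 2 in ΔE2, against 1, 1 and 2 in WT, and the last had 2 and 3 in ΔE2, against 1, 2 and 0 in WT. Each of the 3 had tags in both genotypes, at counts too low for a difference to be detectable. The other 13 clusters held 1 to 3 tags each, 8 of them a single tag, and the widest of all 17 was 87 nt, so that the width limit removed none and the tag minimum alone decided which clusters counted.

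The 4 narrow clusters together held 93.8% and 96.7% of the Gas5 tags in ΔE2 forelimb, against 100.0%, 92.4% and 93.3% in WT forelimb. The means were 95.3 ± 2.01% in ΔE2 (SD, n = 2) and 95.3 ± 4.14% in WT (SD, n = 3), apart by less than the spread between libraries. The share does not depend on the scaling between libraries. Since 315 of these tags are those of the 71-nt cluster, it is a description. An exact permutation p computed for it is used only in the Benjamini-Hochberg adjustment below.

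The number of tags, set against all tags of a library, was higher in ΔE2 at the 71-nt cluster. It was 1055 and 1248 tags per 1000000 in ΔE2 replicate 1 and in replicates 2 and 3, against 706, 756 and 652 in WT replicates 1, 2 and 3. The groups did not overlap, with means of 1151 ± 136 in ΔE2 (SD, n = 2) and 704 ± 52.0 in WT (SD, n = 3), a ratio of 1.63 (log2 0.71). This is the contrast the cluster was chosen by, and it carries no test. How many other clusters showed no overlap was computed only for the scaled counts of the fit below.

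Outside the 71-nt cluster the rule used no single value, and there the test could be made. The rest of the gene had 149 and 122 tags per 1000000 in ΔE2, from 10 and 8 tags, against 56.5, 135 and 72.4 in WT, from 2, 10 and 9 tags. WT replicate 2 lay between the ΔE2 values, so the groups overlapped. Means were 135 ± 19 in ΔE2 (SD, n = 2) and 87.9 ± 41.5 in WT (SD, n = 3), a log2 ratio of 0.62 with p = 0.3 in the exact permutation test (two-sided; 0.6 after Benjamini-Hochberg adjustment over 8 measures, the cluster's and the narrow clusters' shares and the 5 measures of starts and lengths below included). At 2 to 10 tags a library a difference of that size was not detectable. Without the molecules found in more than 1 forelimb library, the rest of the gene had 241 and 136 tags per 1000000 in ΔE2. WT forelimb then had 52.1, 188 and 97.9, so the groups still overlapped (log2 ratio 0.74, p = 0.4, exact permutation test, unadjusted).

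**Figure D2:**
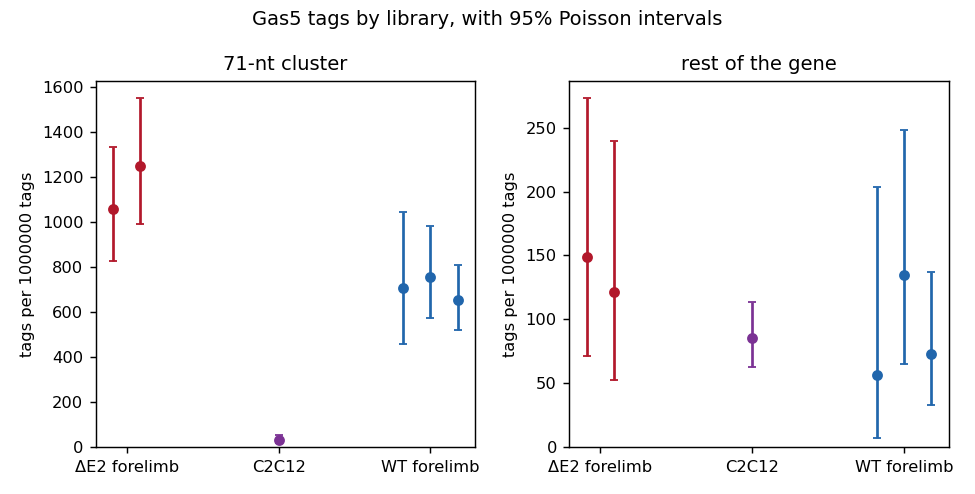
Gas5 tags per 1000000 tags of the library in the 71-nt cluster (left panel) and in the rest of the gene (right panel), for ΔE2 forelimb, C2C12 and WT forelimb; each forelimb point is 1 library, the C2C12 point is the combined set, and bars are 95% Poisson intervals that cover counting error only. In the left panel both ΔE2 points (1055 and 1248) stand above the 3 WT points (652 to 756) and the C2C12 point is at 32.7; in the right panel the ΔE2 and WT points overlap.

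In the fit across all forelimb clusters (edgeR quasi-likelihood, 276 of 191766 clusters with enough tags), the 71-nt cluster was the 1 of the 17 Gas5 clusters that passed the filter on low counts. Its log2 fold of ΔE2 over WT was 1.25 (SE 0.28), from 10150 and 14870 counts per 1000000 (of the tested clusters) in ΔE2 replicate 1 and in replicates 2 and 3, against 4673, 5696 and 5157 in WT replicates 1, 2 and 3. Calls were common in this contrast: 22.5% of the tested clusters were called in either direction and 15.9% as higher in ΔE2, and in 27.2% all ΔE2 values lay above all WT values. The 62 calls of either direction were 16 of 245 clusters without WT replicate 2 and 22 of 238 without WT replicate 3. A larger fold was fitted for 34 of the 276 (12.3%). Since the cluster was chosen on this contrast, its place among them is only a description.

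The size of the fold moved with the scaling, because the tested clusters as a whole moved: their median log2 fold was −0.08 with TMM scaling, −0.46 when scaled to the tags in tested clusters and −0.57 when scaled to all tags. The calls split into 44 higher and 18 lower in ΔE2 with TMM, 28 and 46 with tags in tested clusters, and 22 and 58 with all tags. The 71-nt cluster stood at 1.25, 0.85 and 0.71 under these scalings, which is 1.33, 1.31 and 1.29 above the median of the tested clusters. Without the molecules found in more than 1 forelimb library, it had 1207 and 1240 tags per 1000000 in ΔE2, from 50 and 73 tags, against 573, 729 and 490 in WT, from 11, 31 and 40 tags. The groups again did not overlap, and how many other clusters showed the same in this count was not computed.

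Reads gave another order than tags. The cluster took 3085 and 995.5 reads per 1000000 in ΔE2 replicate 1 and in replicates 2 and 3, against 2932, 2627 and 2491 in WT replicates 1, 2 and 3, so the groups overlapped. The most-read molecule alone made up 28.2% and 13.5% of the cluster's reads in ΔE2, against 55.2%, 49.0% and 22.3% in WT. Median reads behind a tag of the cluster were 22.0 and 70.5 in ΔE2, against 3.0, 27.5 and 22.0 in WT. Tags count each molecule once, and reads count its copies after amplification.

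Within the 71-nt cluster, tag starts were spread unevenly, and they were not tested against random starts. Over the 5 libraries, 70 started at base 3, 49 at base 19, 39 at base 2 and 37 at base 7, together 61.9% of the 315, and the rest were spread over the other 34 of 38 start bases used. In the sequence above, starts at base 7 fall on the first letter of the box C motif and follow the T at base 6, and starts at base 19 follow the T at base 18. Starts at bases 2 and 3, 109 tags in all, follow an A at base 1 and at base 2, which is not a pyrimidine. Ends ran from base 29 to base 71, and 33 tags ended at base 65 or later, so that the tags together span the cluster. No tag of the cluster was longer than 35 nt, so no single tag could span it. In 1 library at most 21 tags with different barcodes shared a position, out of 256 barcodes possible, since 100.0% of forelimb barcodes ended in G.

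Tags of 35 nt made up 84.5% and 86.6% of the cluster's tags in ΔE2, against 96.0%, 87.5% and 91.4% in WT. Over whole libraries they made up 47.8% and 57.0% in ΔE2, against 50.9%, 42.8% and 41.7% in WT. In each of the 5 libraries the share of 35-nt tags was thus higher in the cluster than in the library as a whole. The difference between genotypes at the cluster, −6.07 percentage points, did not pass (p = 0.2, exact permutation test; adjusted p = 0.533).

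The start bases were compared after the data were seen. Starts at bases 1 to 4 made up 40.8% and 43.9% of the cluster's tags in ΔE2, against 36.0%, 28.6% and 39.5% in WT (p = 0.2, exact permutation test; adjusted p = 0.533). Starts at base 7 made up 9.86% and 4.88% in ΔE2, from 7 and 4 tags, against 24%, 14.3% and 14.8% in WT, from 6, 8 and 12 tags. Both ΔE2 values lay below all 3 WT values, a difference of −10.3 percentage points. Its p is the smallest these libraries allow (p = 0.1, exact permutation test, adjusted p = 0.533). For starts at base 19 the shares were 12.7% and 12.2% in ΔE2, against 12%, 25% and 16% in WT (p = 0.5, exact permutation test; adjusted p = 0.8). For starts at base 31 or later they were 15.5% and 15.9% in ΔE2, against 8.0%, 19.6% and 11.1% in WT (p = 0.6, exact permutation test; adjusted p = 0.8). None of the start-base measures separated the genotypes past the threshold, and 2 of the 4 overlapped. Without the molecules found in more than 1 library, an alternative added for these shares after the data were seen, the difference (ΔE2 minus WT) was 21.3 percentage points for starts at bases 1 to 4 (p = 0.1, exact permutation test, unadjusted) and −14.2 for base 19 (p = 0.1, exact permutation test, unadjusted). It was then −6.81 for base 7, −5.11 for base 31 or later and −0.61 for the share of 35-nt tags (p = 0.2, 0.6 and 0.9, exact permutation test, unadjusted). The sizes of these differences thus rested on which molecules were counted.

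**Figure D3:**
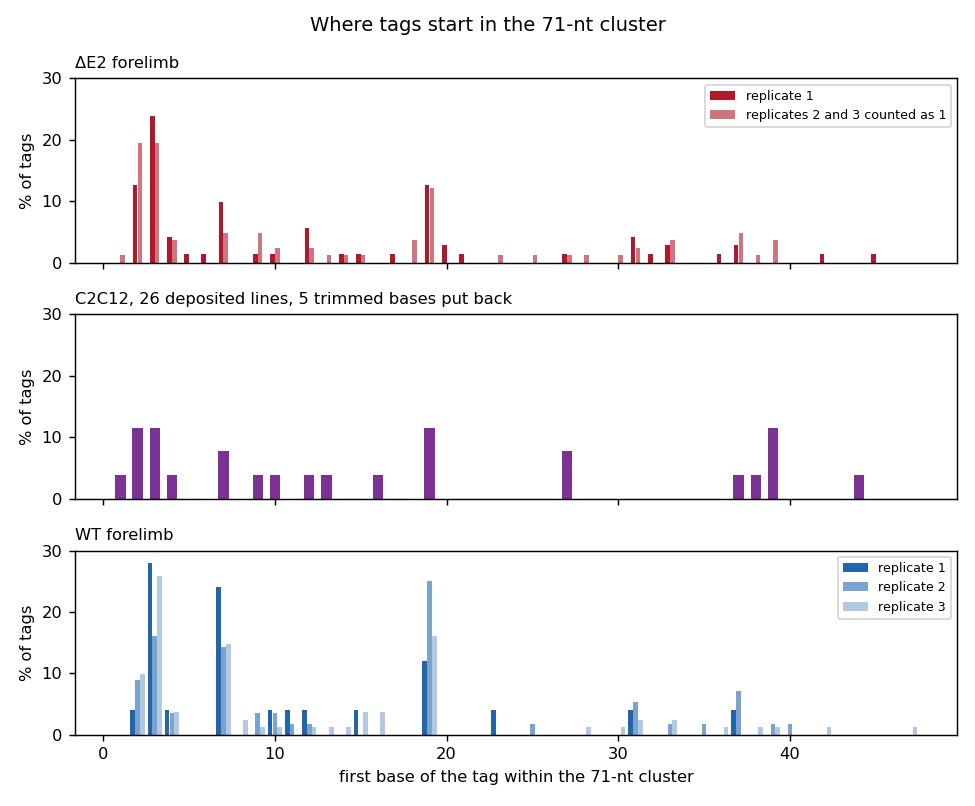
Percent of the 71-nt cluster's tags by the base of the cluster at which the tag starts, for ΔE2 forelimb, C2C12 and WT forelimb; bars of 1 colour in different shades are libraries of 1 group, and the C2C12 bars rest on 26 deposited lines with 5 trimmed bases put back. Bases 2, 3, 7 and 19 lead over the 5 forelimb libraries together, and base 7 takes 9.86% and 4.88% in ΔE2 against 14.3% to 24% in WT.

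In C2C12 myoblasts tags were spread more evenly over the gene and the 71-nt cluster was low. C2C12 had 118 Gas5 tags per 1000000, against 783 in the WT forelimb libraries together. At the 71-nt cluster it had 32.7 per 1000000 (95% Poisson interval 19.4 to 51.7; 18 tags), against 693 in WT forelimb (162 tags), a log2 ratio of −4.40. In the rest of the gene it had 85.4 per 1000000 (47 tags), against 89.8 in WT forelimb (21 tags), a ratio of 0.951 with a 95% interval of 0.558 to 1.68. With 1 combined C2C12 file there is no replicate and no test, and these intervals cover counting error only. Fewer cells with Gas5 RNA and less RNA or binding per cell cannot be told apart in such samples.

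The division of the tags within the gene needs no scaling between sets. The 71-nt cluster held 27.7% of Gas5 tags in C2C12 (Wilson 95% interval 18.3 to 39.6%), against 88.5% in WT forelimb (83.1 to 92.4%). Per nucleotide, tags were 22.8 times as dense in the cluster as in the rest of the gene in C2C12, against 460 times in the WT forelimb libraries together. The C2C12 file runs in 3 unlabelled blocks told apart by display colour, and the cluster held 8 of 29, 5 of 21 and 13 of 46 Gas5 lines in them. As a share that is 27.6%, 23.8% and 28.3%, all below the WT forelimb interval.

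The size of this gap moved with how molecules were counted. Because the C2C12 letters are genomic bases, copies and separate molecules at 1 C2C12 position cannot be told apart, while forelimb barcodes separate them. Positions were therefore also counted once in C2C12 and once in each WT library. The cluster then had 29.9 tags per 1000000 in C2C12 (16 of 61 Gas5 tags), against 238 in WT forelimb (53 of 74), a log2 ratio of −2.99. The cluster's share of Gas5 tags was then 26.2% in C2C12, against 71.6% in WT forelimb. With the WT libraries pooled first and each position counted once, a comparison added after the data were seen, WT forelimb had 182 per 1000000 (33 of 52). The log2 ratio was then −2.61, and the share in WT forelimb was 63.5%.

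Tag length moved it as well. C2C12 tags are listed at 26 to 30 nt, which is 31 to 35 nt with the 5 trimmed bases put back. Set against WT tags of 31 to 35 nt, a comparison added after the data were seen, the cluster had 32.7 per 1000000 in C2C12 and 1340 in WT forelimb, a log2 ratio of −5.36, and 27.7% of Gas5 tags in C2C12 against 96.8% in WT forelimb (151 of 156). Set against WT tags of 26 to 30 nt, the lengths as listed, the log2 ratio was −2.29, and the share in WT forelimb was 43.8% (7 of 16 tags; Wilson 95% interval 23.1 to 66.8%), which overlaps the C2C12 interval. The rest of the gene had a ratio of C2C12 over WT of 1.93 (95% interval 0.769 to 6.2) with WT tags of 31 to 35 nt and of 0.417 (0.202 to 0.967) with those of 26 to 30 nt, so no direction is given for it. At the cluster C2C12 was lower in each of these counts, by very different amounts.

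C2C12 tags formed 23 clusters in the gene, 10 of them with a forelimb tag, and 9 of the 17 forelimb clusters had a C2C12 tag. By the same size and count as in forelimb, 3 of the 23 were narrow: the one at the 71-nt cluster (73 nt, 18 tags), chr1:162965987-162966037 (51 nt, 11 tags) and chr1:162967497-162967553 (57 nt, 5 tags). The one at chr1:162965987-162966037 had 2 forelimb tags, 1 in ΔE2 replicates 2 and 3 and 1 in WT replicate 2. The second stretch given above covers only its 5′ part, up to chr1:162966006. The one at chr1:162967497-162967553 had 3 forelimb tags, 0 in ΔE2, against 2 in WT replicate 2 and 1 in WT replicate 3.

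Inside the 71-nt cluster, with the 5 trimmed bases put back, 11 of 26 C2C12 lines (42.3%) started at bases 2, 3, 7 or 19, against 61.9% of forelimb tags. These 4 bases were picked as the busiest in forelimb, which makes the forelimb share high by choice. Forelimb barcodes separate molecules at 1 base and C2C12 letters do not, so no difference is read from the shares. Forelimb tags used 38 of the bases from 1 to 47 (80.9%), and 15 of the 16 C2C12 start bases were among them. Counted by position and letters, 4 of 18 C2C12 tags (22.2%) started at bases 2, 3, 7 or 19, a lower share because lines at 1 base collapse to 1 tag.

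Set among the other busy places of the forelimb libraries, the 71-nt cluster ranked 29 of 191766 clusters by tags and 6 among those of at most 150 nt. Of the 103 clusters with at least 100 tags, 26 were at most 150 nt wide and 7 at most 71 nt, and the median width was 204 nt. The Gas5 cluster held 92.4% of the same-strand tags in a window of 4300 nt around it, against a median of 56.4% over the 103, with 11 above it. Among the 26 narrow ones the median was 55.0%, with 5 above it. It was among the narrower and more isolated of these clusters, a description with no test.

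**Figure D4:**
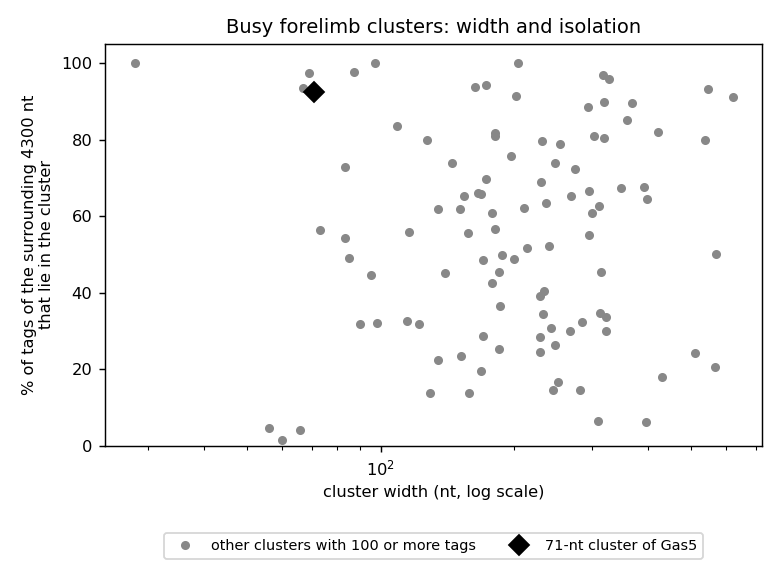
Share of the same-strand tags of the surrounding 4300 nt that lie in the cluster (percent) against cluster width (nt, log scale), for the 103 forelimb clusters with at least 100 tags over 5 libraries; the diamond is the 71-nt cluster of Gas5 and each circle is another cluster. The diamond stands at 71 nt and 92.4%, with 11 clusters above it.

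The RNA-seq table of the authors lists 98 cassette exon events in 84 genes for ΔE2 and WT forelimb RNA. Gas5 was not among them. Of 25 snoRNA host genes looked up by symbol, Gas5 included, 0 were listed. None of 5 symbols for box C/D proteins and none of 8 genes of nonsense-mediated decay was listed either. The table lists chosen events, so a gene that is absent from it has no value there. In the RefSeq table of another build (GRCm38.p6), used for names only, 8 snoRNA genes lie within Gas5, of which 1 has a symbol (Snord47), and none of them was assigned to a cluster.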

How the data were processed

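CLIP tags were aligned by the authors to mm9 with Novoalign (version not given in the sources used here), per the submitters' processing notes. The deposited files list tags by position and strand; the score of each tag, as deposited by the authors, has no stated meaning and was not used. Forelimb files hold each position and barcode once with its reads; the C2C12 file joins libraries without labels. The deposited exon table gives estimated counts, an odds ratio and p-values from group totals, per the file headers, and was read for gene names alone. Forelimb tags overlapping by 1 nt or more on a strand formed 191766 clusters. They were fitted with edgeR 4.0.16 in R 4.3.3 (TMM, filterByExpr minimum count 10, quasi-likelihood test, Benjamini-Hochberg threshold 0.05); tested clusters held 10.6% to 14.8% of a library's tags. DESeq2 1.42.0 was an alternative. Single values were compared by two-sided exact permutation tests, and intervals are Poisson or Wilson (95%), for counting error only; C2C12 had no test. Tag counts, permutations and plots were made in Python 3.11.15 (pandas 2.3.3, numpy 2.4.6; scipy 1.17.1 for intervals; plots with matplotlib 3.10.9). C2C12 tag starts were moved 5 nt upstream, and 1 more on the plus strand, to set them beside forelimb starts. The named clusters are those at most 150 nt wide with at least 5 forelimb tags. Gas5, its lists and its measures were chosen with earlier results of these data known. Alternatives were another scaling, tool, filter, collapse of tags, set of libraries, replicate block and cluster size.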

Additional observations from a re-analysis of the deposited data

How the results depend on the processing

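The log2 fold of the 71-nt cluster (1.25) was above 0 in 15 of 15 alternatives. This is a description, since the cluster was chosen on the contrast. The log2 fold was 0.71 with all tags as library size, 1.06 with DESeq2 over all clusters, 0.54 without a low-count filter, 1.31 with WT replicates 2 and 3 as 1 library, and 1.19 to 1.62 over the fits leaving out 1 replicate. Same-numbered replicates did not deviate together (r = −0.318, −0.204 and −0.24); with a replicate block over 6 libraries the fold was 1.35, with 64 clusters called of 212. For the rest of the gene, the log2 ratio (0.62) was 0.38 to 1.07 over fits leaving out 1 replicate, highest without WT replicate 2. The difference in narrow-cluster share, near 0 at −0.0056 percentage points, changed sign with 6 libraries (0.499, and 0.499 paired in a replicate block), without shared molecules (0.873), by position (1.16), by 5′ end (0.704) and with at least 10 tags (0.236), and ran from −1.42 to 2.37 leaving out 1 replicate. Starts at base 31 or later differed by 2.76 points, and by −5.11 without shared molecules, an alternative planned for the levels and added for start bases after seeing the data. For C2C12 over WT, the log2 ratio of the whole gene (−2.73) was −1.54 by position, −1.63 with WT tags of 26 to 30 nt, −1.34 with each position once over pooled libraries and −3.55 with WT tags of 31 to 35 nt, the last 2 added after seeing the data. For the 71-nt cluster (−4.40) these were −2.99, −2.29, −2.61 and −5.36. For the rest of the gene (−0.07) WT tags of 26 to 30 nt gave −1.26 and those of 31 to 35 nt 0.94. Counts of calls ranged with the tool and filter: 62 by edgeR, 7 by DESeq2, 19 without a filter, 41 by 5′ end, and 0 of 238 with WT replicates 2 and 3 as 1 library, where 72 had an unadjusted p under 0.05. The causes were not tested. Of the forelimb clusters of Gas5, the 71-nt one alone passed the filter on low counts in the main fit.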

Other observations

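The C2C12 coordinates stood 1 nt further downstream on the plus strand than on the minus strand when set against forelimb tags: 3′ ends coincided most often at an offset of 1 nt on the plus strand (4795 positions) and of 0 nt on the minus strand (5033 positions), and 5′ ends at 6 nt (6436 positions) and 5 nt (6841 positions). Within a display colour, 0 C2C12 lines repeated both position and letters, and tags were 26 to 30 nt long, against 19 to 38 nt in forelimb.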
